A study of Mus musculus with 4 samples.

Results

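The Ifi200 genes (also called HIN-200 or PYHIN genes) are a cluster of interferon-inducible genes on mouse chromosome 1. The 5 members followed here were Ifi202b, Ifi203, Ifi204, Ifi205 and Aim2, taken by an exact match of the gene symbol, out of 33114 named genes in the deposited tables. The tables held 8 further genes of the same cluster under current or older symbols, so that 13 Ifi200 genes were measured in all. The members were named with the absence of Ifi202b from B6 already known, and the levels of that gene are therefore described without a test.

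Sorted thymocytes of Rag1-/- mice, which cannot assemble antigen receptor genes, were profiled by sequencing their polyadenylated RNA. The 4 libraries were B6 (strain C57BL/6) at 4 weeks, B6 at 7 weeks, NOD at 4 weeks and NOD at 6.5 weeks, all of genotype Rag1-/- and none treated according to the labels. NOD is an inbred strain prone to autoimmune diabetes, and the series concerns the failure of an early T-cell checkpoint and the start of leukaemia in Rag1-deficient NOD mice. Each strain and age had 1 library. The labels used here name neither the part of Rag1 that was removed, nor the sorted surface markers, nor the number of mice per library. A strain mean below rests on 2 libraries of different age, so its spread holds age, animal and technical differences together.

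Ifi200 proteins bind nucleic acids through a HIN domain, and most also carry a pyrin domain that recruits other pyrin proteins. Aim2 senses DNA in the cytosol and assembles an inflammasome with the adaptor Pycard and the protease Casp1. The Ifi202b protein, p202, has HIN domains without a pyrin domain and is known to restrain Aim2, while p204, the product of Ifi204, takes part in DNA sensing in myeloid cells. The genes arose by repeated duplication, and interferon drives them through response elements in their promoters.

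Because the genes are copies of each other, their sequence decides how well a short read can be assigned, and their promoters hold the response elements, so both are shown before the values. The longest stretch that the coding sequences of Ifi205 and its relative Ifi211 (listed as Mnda) share without a mismatch had 495 bases, from base 549 to 1043 of Ifi205. A read from within it cannot be told apart between these copies in the reference, which is the C57BL/6J sequence. The first 120 bases of the run, and below it the run of 76 bases shared by Ifi203 and Mndal (listed as LOC100040462), were as follows, from the GENCODE M21 transcripts on GRCm38.
Ifi205 and Ifi211: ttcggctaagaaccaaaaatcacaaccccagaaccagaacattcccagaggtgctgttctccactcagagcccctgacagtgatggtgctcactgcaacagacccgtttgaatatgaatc
Ifi203 and Mndal: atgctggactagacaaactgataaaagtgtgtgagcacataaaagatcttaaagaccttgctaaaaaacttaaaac

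Ifi202b was far more distinct. Its most similar window of 60 coding bases among all relatives, bases 239 to 298, met Mndal with 4 mismatches, shown in capitals. The closest window of Aim2 met Ifi207 (listed as AI607873) with 16 mismatches.
Ifi202b: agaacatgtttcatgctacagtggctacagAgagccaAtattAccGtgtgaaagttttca
Mndal: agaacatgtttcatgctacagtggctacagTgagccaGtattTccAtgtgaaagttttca

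Each transcript was broken into words of 32 bases, the length of the reads, to count how many occur elsewhere. None of the words of Aim2 and none of Ifi202b occurred in a transcript of another Ifi200 gene. With 2 mismatches allowed, 0% of the words of Aim2 and 2.88% of those of Ifi202b did. The shares without a mismatch were 9.86% for Ifi203, 42.5% for Ifi204 and 56.2% for Ifi205, and with 2 mismatches allowed 28.5%, 81.2% and 68.6%. Over the transcripts of all other genes, the shares without a mismatch were 6.09% for Aim2, 1.02% for Ifi202b, 20.4% for Ifi203, 44.9% for Ifi204 and 56.2% for Ifi205. For Aim2, Ifi203 and Ifi205 the shares of shared reads, given below, were larger than these in every library of both strains. For Ifi202b they were larger in NOD, the strain in which it had reads. Why was not tested. Of the words of Ifi205, 53.9% lay in Ifi211 and 23.6% in Mndal without a mismatch, and Ifi204 shared 29.0% with Ifi211. The other copies formed 2 further sets. Ifi209 (listed as AI447904) and Ifi214 (listed as BC094916) had 85.0% and 83.4% of their words in common within 2 mismatches. Ifi213 (listed as LOC623121) shared 85.4% of its words with Ifi208 (listed under a Riken clone name), and Ifi206 (listed as EG240921) shared 35.5% with Ifi213 and 34.0% with Ifi208.

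**Figure D1:**
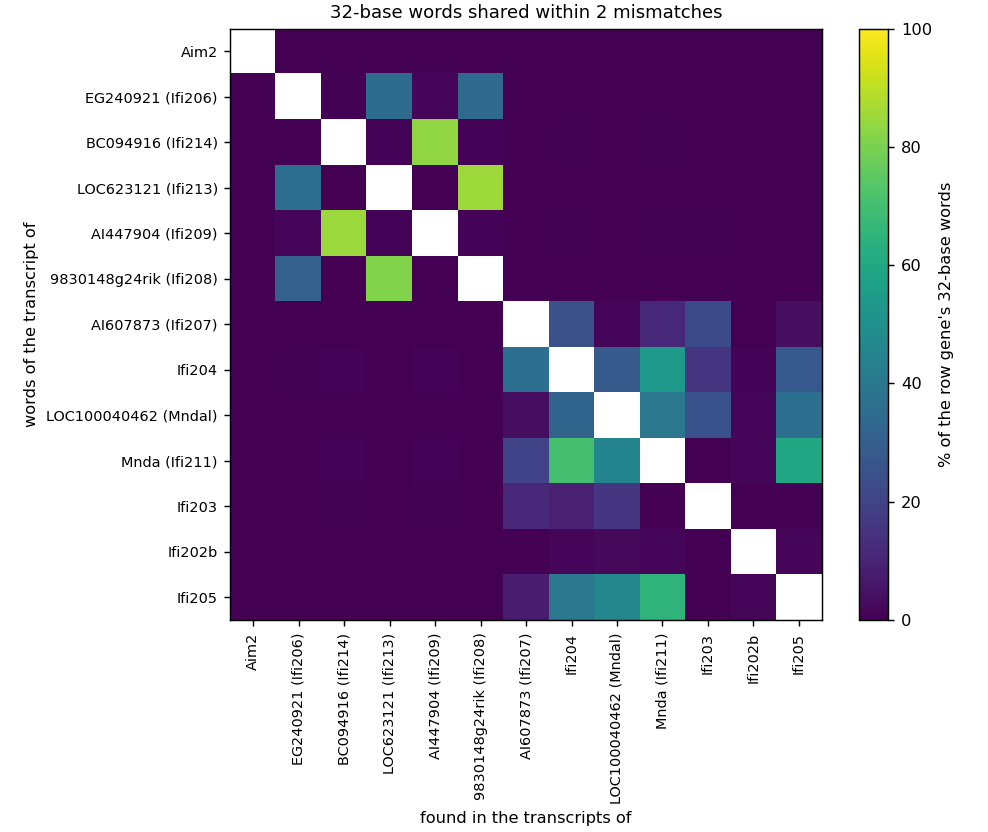
Share of the 32-base words of each row gene that occur within 2 mismatches in the transcripts of each column gene, in percent (colour), with genes in their order along the chromosome. Ifi209 and Ifi214 stand out as one pair of near copies and Ifi213 and Ifi208 as another, Ifi204, Mndal, Ifi211 and Ifi205 share words with one another, and the rows of Aim2 and Ifi202b are close to 0.

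The promoters, from 250 bases before to 50 after each transcription start (RefSeq, GRCm38.p6), were matched for 12 of the 13 genes, all but Ifi204, which was not searched. They were searched on both strands for GAAANNGAAA, the core of the interferon-stimulated response element, and for TTCNNNGAA, the element bound by STAT proteins. GAAANNGAAA occurred in 10 of the 14 promoters of these genes (9 of the 12 genes), against 3.44% of all 32851 promoters of this length, but the copies share their origin and are not independent. The match lay in the promoters of Ifi203 and Ifi205 and in those of Mndal, Ifi206, Ifi207, Ifi208, Ifi211, Ifi213 and Ifi214. It was not in the windows of Ifi202b, Aim2 and Ifi209. The windows around it are shown for the members, for their near copies Ifi211 and Mndal, and for Ifi208 and Ifi206, 2 relatives that fell in NOD, with the match in capitals.
Ifi203 (chr1:173942503-173942542, minus strand): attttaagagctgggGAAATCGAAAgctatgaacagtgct
Ifi205 (chr1:174031865-174031904, minus strand): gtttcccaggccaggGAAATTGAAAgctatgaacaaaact
Ifi211 (chr1:173913059-173913098, minus strand): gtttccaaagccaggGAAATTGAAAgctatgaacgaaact
Mndal (chr1:173880199-173880238, minus strand): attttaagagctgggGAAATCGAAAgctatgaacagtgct
Ifi208 (chr1:173673592-173673631, plus strand): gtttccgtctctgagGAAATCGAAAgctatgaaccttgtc
Ifi206 (chr1:173491334-173491373, minus strand): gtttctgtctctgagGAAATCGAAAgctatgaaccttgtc

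The windows of Ifi203 and Mndal were identical over these 40 bases. TTCNNNGAA was found in 8.3% of all promoters and, among the 12 genes, in Ifi202b, where it began at position -148 from the start and overlapped no other match. The promoter of Ifi202b, with that match in capitals, and that of Aim2, which held neither motif, read as follows. These are C57BL/6J sequences, the NOD sequence was not used here, and a match or its absence says nothing of whether a factor binds.
Ifi202b (chr1:173982795-173983094, minus strand): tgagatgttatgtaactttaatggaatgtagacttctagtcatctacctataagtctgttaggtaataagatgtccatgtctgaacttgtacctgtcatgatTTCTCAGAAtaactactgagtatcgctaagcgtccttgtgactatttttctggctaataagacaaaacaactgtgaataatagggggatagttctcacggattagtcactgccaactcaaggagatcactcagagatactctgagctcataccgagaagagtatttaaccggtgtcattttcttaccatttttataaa
Aim2 (chr1:173420354-173420653, plus strand): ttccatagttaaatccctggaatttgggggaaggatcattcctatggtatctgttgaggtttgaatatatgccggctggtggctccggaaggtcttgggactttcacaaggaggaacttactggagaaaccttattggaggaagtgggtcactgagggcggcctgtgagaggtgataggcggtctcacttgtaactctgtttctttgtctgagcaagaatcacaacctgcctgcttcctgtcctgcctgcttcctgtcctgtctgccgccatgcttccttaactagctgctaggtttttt

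Levels are given as RPKM, reads per kilobase of gene length scaled to the depth of the library. The recovered depth of the libraries ran from 17040000 to 24090000 reads. All 8 markers of double negative thymocytes were expressed in every library, among them Il2ra at 422 to 531 and Ptcra at 173 to 318. Of 12 macrophage and monocyte markers 2 reached RPKM 1 (Lyzs and Cd68) and the list summed to 28.3 and 26.2 in the B6 libraries and 30.7 and 25.7 in the NOD ones. The 12 dendritic cell markers, mostly Ly6d and Bst2, summed to 476 and 394 in B6 and 346 and 344 in NOD. The 8 NK and innate lymphoid markers summed to 145 and 132 in B6 and 109 and 89.7 in NOD. Of these, 2 reached RPKM 1 (Gzma and Nkg7), both lower in NOD. Below RPKM 1, Zbtb16, Klrb1c, Prf1 and Eomes were higher in both NOD libraries and Ncr1 lower. Among 7 B-cell markers 1 reached RPKM 1 (Cd79b), with Ms4a1 and Pax5 at 0, and that list summed to 24.1 to 37.8. Granulocyte, erythroid and stromal lists had 2 markers each at RPKM 1 or more and summed to 0.36 to 4.4, 6.44 to 44.1 and 40.7 to 57. The part of other cells in the Ifi200 values was not tested, and in such bulk RNA fewer expressing cells and less RNA per cell cannot be told apart.

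Ifi202b had an RPKM of 49.7 in NOD at week 4 and 43.4 in NOD at week 6.5, and was listed at 0 in both B6 libraries. The NOD values stood for 1642 and 2004 reads. A count of 0 allowed an RPKM of up to 0.0919 in B6 at week 4 and 0.0738 at week 7, taking 3 reads as the limit. On the log2(RPKM + 1) scale the strain difference was 5.57 (SE 0.196). As B6 was at 0, its size was set by the added constant: 6.55 with 0.5 and 8.86 with 0.1 in place of 1. Most of these reads had a single place: 7% and 10% of the NOD reads were shared with another place, which is 115 and 200 reads. Single-place reads alone gave an RPKM of 46.2 and 39.1 in NOD. Neither single-place nor shared reads were assigned to Ifi202b in B6.

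Ifi203, a nuclear Ifi200 protein gene and the member with the highest level in every library, was at 30.2 and 34.7 in B6 at weeks 4 and 7, and at 67.5 and 62.5 in NOD at weeks 4 and 6.5. Both NOD values lay above both B6 values, with means of 65.0 ± 3.51 and 32.4 ± 3.22 (SD, n = 2). The difference was 0.98 on the log2(RPKM + 1) scale (SE 0.228) and missed the threshold in limma (adjusted p = 0.0679 over all 12413 genes tested). Leaving out 1 library at a time kept the difference between 0.89 and 1.08, while the SE ran from 0.119 to 0.542. The adjusted p in limma was 0.0163 and 0.0174 without B6 week 4 and week 7, and 0.894 and 0.669 without NOD week 4 and week 6.5. Shared reads made up 46% to 54% of its value, and single-place RPKM reached 16.0 and 18.7 in B6 and 32.4 and 28.8 in NOD.

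Ifi204, the gene of p204, was at 6.61 and 5.62 in B6 and at 9.94 and 10.6 in NOD, in the same order of ages. These values rested on 259 to 587 reads, 43% to 45% of them shared in every library. The groups did not overlap, and the log2 difference of 0.67 (SE 0.202) had an adjusted p of 0.18 in limma. Without B6 week 4 it was 0.0255. The share of shared reads was close to equal in the strains, so that single-place RPKM showed the same order, with 3.77 and 3.15 in B6 and 5.47 and 5.84 in NOD.

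Aim2, the DNA sensor of the inflammasome, was at 5.03 and 6.57 in B6 and at 9.74 and 10.4 in NOD. Its reads were the second least shared of the 5 members in NOD, with 8% and 9% shared in B6 and 15% and 17% in NOD, and single-place RPKM was 4.63 and 5.98 against 8.28 and 8.59. The groups did not overlap. The log2 difference was 0.71 (SE 0.213), with an adjusted p of 0.175 in limma, and 0.0486 without B6 week 4.

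Ifi205 was the 1 member with lower values in NOD, at 1.16 and 1.46 in B6 and at 0.65 and 0.46 in NOD, from 18 to 50 reads per library. All of its reads were shared in both B6 libraries and in NOD week 4, and 78% in NOD week 6.5, where 4 reads had a single place. Single-place RPKM was 0 in both B6 libraries and in NOD week 4 and 0.101 in NOD week 6.5, so the lower NOD values were not seen in single-place reads. A level of Ifi205 apart from its copies was therefore not detectable at this depth. The log2 difference of -0.57 (SE 0.171) had an adjusted p of 0.174 in limma, and 0.0484 without B6 week 4.

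**Figure D2:**
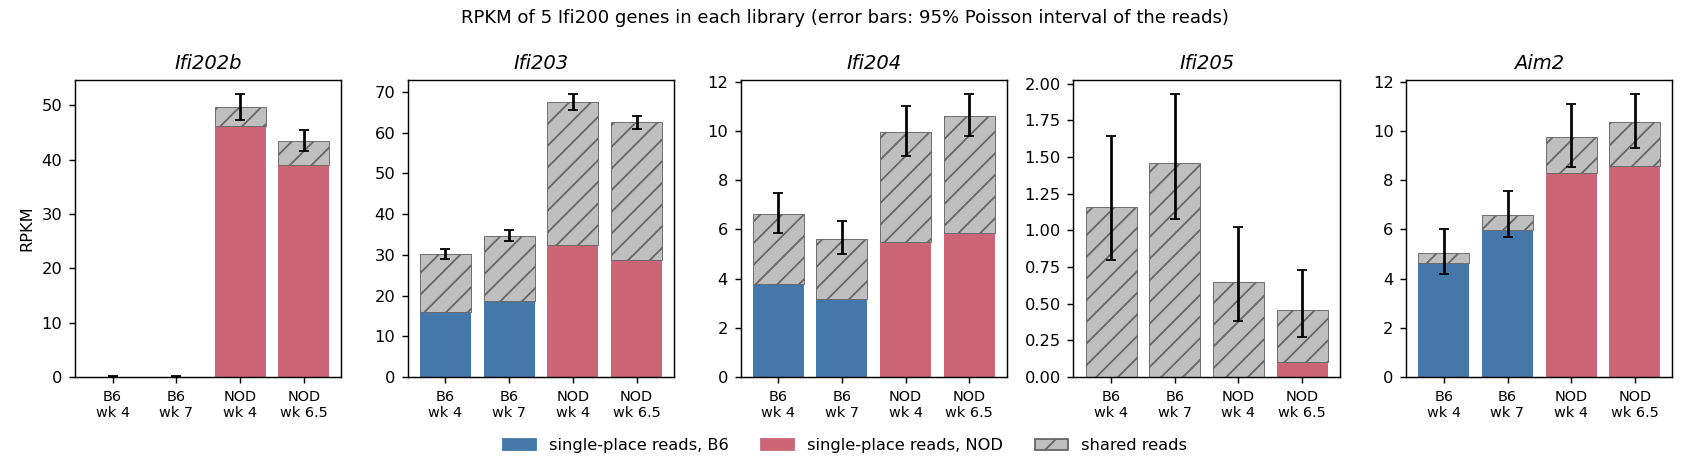
RPKM of the 5 genes in each library (bars, 1 library each), split into reads of a single place (colour) and shared reads (hatched), with the 95% Poisson interval of the reads as error bars. Ifi202b is at 0 in both B6 libraries and at 49.7 and 43.4 in NOD, Ifi203, Ifi204 and Aim2 are higher in both NOD libraries, and Ifi205 consists almost wholly of shared reads.

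Of the 4 members tested, 0 passed the threshold in limma and 4 had an unadjusted p under 0.05, where 4.37% and 12.7% of all genes did. Removing B6 week 4 raised the share of all genes that passed to 27.2%, which is the background for the values without that library. The strains did not overlap for any of the 5 members, where 43.9% of all tested genes did not. Both NOD values were above both B6 values for 4 members, where 25.3% of all tested genes were, and below for 1, where 18.7% were. Ifi202b and Ifi205 passed the filter on low values through 1 strain alone, so these counts do not bear on the members as a set. Per length, the order of levels in NOD was Ifi203, Ifi202b, Ifi204 and Aim2 together, and Ifi205. The 95% Poisson intervals of Ifi204 and Aim2 overlapped in both NOD libraries, with 9.77 to 11.5 against 9.30 to 11.5 at week 6.5. In B6 the order was Ifi203, then Ifi204 and Aim2, which changed places between the ages and whose intervals overlapped at each, then Ifi205 and Ifi202b.

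The 8 other genes of the cluster held the changes that passed the test, and most of them went down in NOD. Ifi206 was at 4.38 and 3.53 in B6 and at 0.41 and 0.38 in NOD, a log2 difference of -1.82 (SE 0.179, limma adjusted p = 0.00169). Ifi209 was at 10.8 and 14.4 in B6 and at 2.71 and 2.42 in NOD, lower by a log2 difference of -1.92 (SE 0.217, limma adjusted p = 0.00306). Ifi208 was at 3.02 and 3.52 in B6 and at 0.75 and 0.55 in NOD, with a difference of -1.37 (limma adjusted p = 0.00567). Each of these 3 genes was separated between the strains by a wider gap than any between the ages of a strain.

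Ifi213 was at 1.03 and 1.29 in B6 and at 0.14 and 0.17 in NOD (log2 difference -0.90, limma adjusted p = 0.0216, and 0.0668 without B6 week 7). The NOD values stood for 7 and 12 reads, of which 0 and 2 had a single place. Ifi211 went up, from 2.66 and 2.59 in B6 to 7.68 and 7.31 in NOD (log2 difference 1.23, SE 0.186, limma adjusted p = 0.0113, and 0.0555 without NOD week 4). In limma, 4 of the 8 genes thus fell and 1 rose, where 1.59% and 2.78% of all genes did. Of the 4 that fell, Ifi206, Ifi208 and Ifi213 passed the filter on low values through B6 alone, so this count is a description.

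The remaining 3 relatives did not pass. Ifi207 was at 0.37 and 0.58 in B6 and at 1.62 and 1.41 in NOD, from mostly shared reads (limma adjusted p = 0.0522, 0.044 without B6 week 4 and 0.0323 without NOD week 6.5). Ifi214 was at 0.75 and 1.10 in B6 and at 2.10 and 1.65 in NOD (limma adjusted p = 0.21). Mndal, whose level was above that of every other Ifi200 gene in B6, was at 66.9 and 72.5 in B6 and at 52.7 and 54.0 in NOD (log2 difference -0.38, limma adjusted p = 0.573, and 0.046 without B6 week 4). Over the cluster, 7 genes, Ifi202b among them, had both NOD values above and 6 had both below the B6 values, where 25.3% and 18.7% of all genes did. As Ifi202b, Ifi205, Ifi206, Ifi207, Ifi208 and Ifi213 passed the filter through 1 strain alone, these counts too are a description. With no filter on low values, 0 of the 12 genes other than Ifi202b passed in limma (adjusted p from 0.0567 to 0.458, 11 of them with an unadjusted p under 0.05), where 0.534% of 22836 genes passed.

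**Figure D3:**
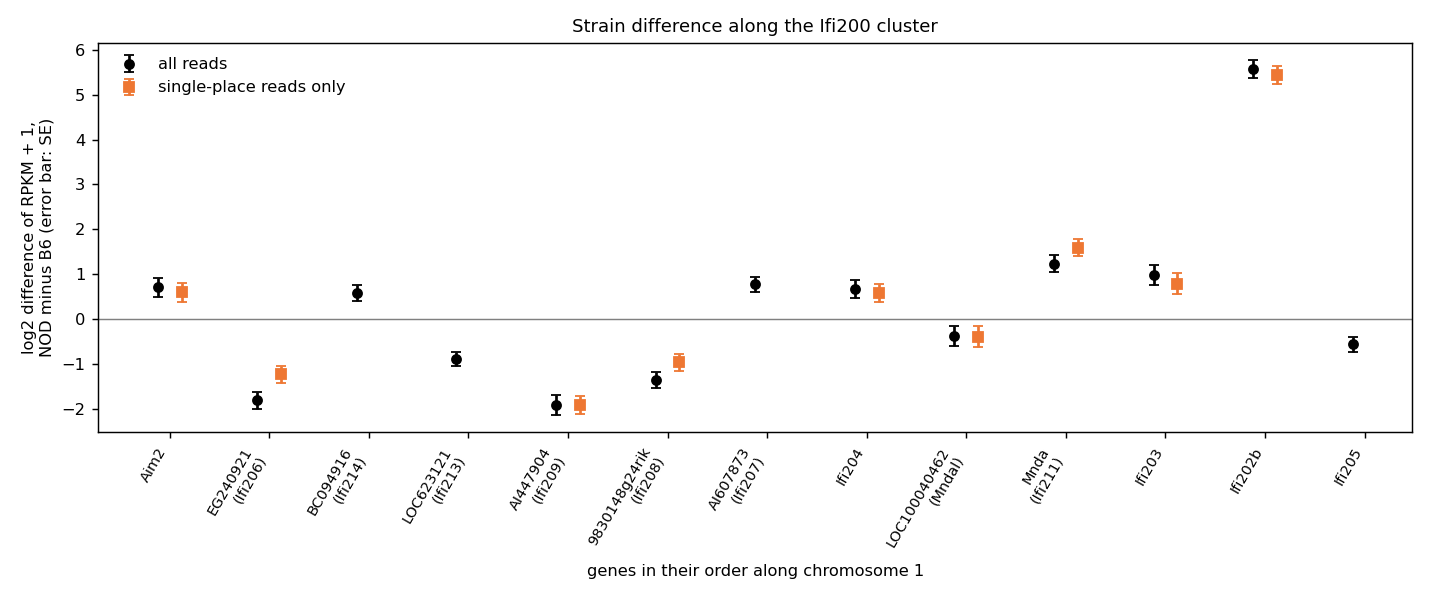
Log2 difference of RPKM + 1 between NOD and B6 (points, with SE from limma, 2 libraries per strain) for the 13 genes in their order along chromosome 1, from all reads (circles) and from single-place reads (squares, drawn for the 9 genes past the filter). Ifi202b stands at 5.57, the 4 lower calls lie between Aim2 and Ifi207, and the squares have the same sign as the circles.

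Reads could move between copies, so the sets of near-identical genes were followed with shared reads removed and as sums. With single-place reads alone, 8 genes other than Ifi202b passed the filter and 4 passed the test in limma, where 3.64% of all genes did (2.22% higher and 1.43% lower). Ifi206 and Ifi208 passed this filter through B6 alone and Ifi211 through NOD alone, so this count too is a description. Ifi209 was lower by -1.91 (adjusted p = 0.00149), Ifi206 by -1.24 (adjusted p = 0.0112) and Ifi208 by -0.97 (adjusted p = 0.0266), and Ifi211 was higher by 1.59 (adjusted p = 0.00242), all in limma on the log2 scale. Ifi203, Ifi204 and Aim2 had differences of 0.78, 0.58 and 0.59 (limma adjusted p = 0.173, 0.285 and 0.322).

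For the near copies Ifi209, which fell, and Ifi214, which did not pass the test, the sum in RPM (RPKM times length in kilobases, reads scaled to depth without length) stood at 20.9 and 28.0 in B6 and 8.68 and 7.35 in NOD. The pair as a whole was thus lower in both NOD libraries, as Ifi209 alone was. For Ifi211 and Ifi205, which share the first run printed above, the sum came to 6.26 and 6.63 in B6 and 13.7 and 12.8 in NOD. In single-place reads it was 0.703 and 0.599 against 5.20 and 5.47. Ifi206, Ifi213 and Ifi208, which share words with each other, were lower together, with a sum of 22.5 and 22.8 in B6 against 3.64 and 3.05 in NOD.

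Ifi203 and Mndal, which share the 76-base run printed above, summed to 254 and 283 RPM in B6 and to 369 and 352 in NOD. Ifi203 took 46.0% and 47.4% of this pair in B6 and 70.7% and 68.6% in NOD. In single-place reads its share came to 45.5% and 47.4% in B6 and 67.8% and 66.3% in NOD, so the shift was present without the shared reads.

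Summed over the 13 genes, the cluster took 327 and 365 RPM in B6 at weeks 4 and 7 and 533 and 503 in NOD at weeks 4 and 6.5. Ifi202b accounted for 95.1 and 83.2 of the NOD sums, or 17.9% and 16.5%. Without it the NOD sums were 438 and 420, on this scale still above both B6 sums, and the ratio of the strain means was 1.24. In single-place reads without Ifi202b that ratio was 1.15. On this scale the 0 of Ifi202b in B6 was thus not matched by a higher sum of its relatives in B6. RPM uses the whole depth, of which the tables held a varying part. In B6 it was 11424388 of 17040000 reads at week 4 and 11156869 of 21220000 at week 7. In NOD it was 10939290 of 17260000 at week 4 and 14795028 of 24090000 at week 6.5. Scaled to these parts, B6 week 7 would rise most, to about the level of the NOD sums without Ifi202b. That the NOD sums without Ifi202b lay above both B6 sums thus depends on the scale. Shared reads made up 46.5% and 47.0% of the cluster in B6 and 42.0% and 44.5% in NOD.

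**Figure D4:**
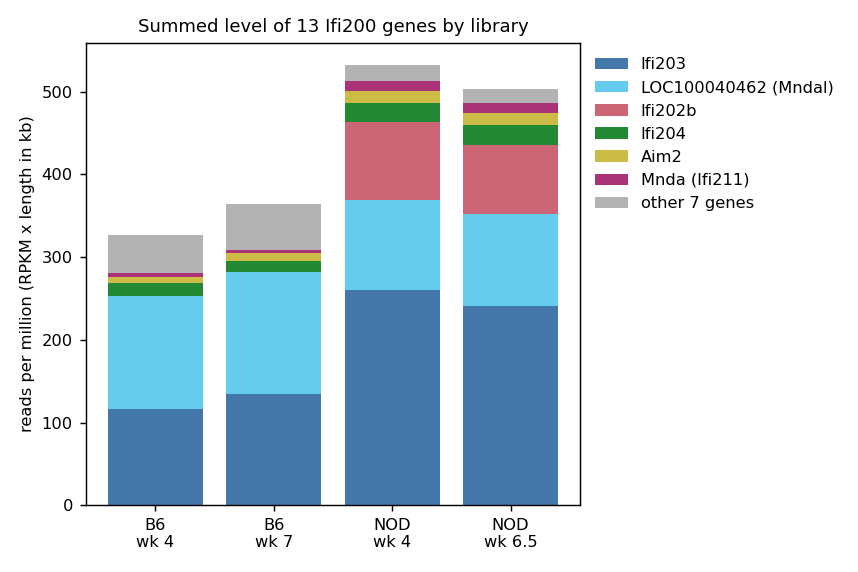
Summed RPM of the 13 Ifi200 genes (RPKM times gene length) in each library, stacked by gene. The bars reach 327 and 365 in B6 and 533 and 503 in NOD, with Ifi202b present in the NOD bars, a taller Ifi203 segment and a shorter segment of the other 7 genes.

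At a single age, 1 library stood against 1, so these comparisons had no replicate check, and the intervals cover counting error. At week 4 the RPKM ratio of NOD to B6 was 2.24 for Ifi203 (95% exact interval 2.12 to 2.36), 1.94 for Aim2 (1.55 to 2.42), 1.5 for Ifi204 (1.28 to 1.76) and 0.56 for Ifi205 (0.293 to 1.02). Between NOD week 6.5 and B6 week 7, whose ages differ, it was 1.80 for Ifi203 (1.72 to 1.88), 1.58 for Aim2 (1.32 to 1.88), 1.89 for Ifi204 (1.63 to 2.19) and 0.315 for Ifi205 (0.174 to 0.553). Each of these members lay on the same side of 1 at both ages, although the week 4 interval of Ifi205 held 1.

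Of the 7 Ifi200 genes with RPKM of 5 or more in either week 4 library, 3 were 2-fold higher in NOD (Ifi202b, Ifi203 and Ifi211) and 1 was 2-fold lower (Ifi209), where 2.23% and 2.04% of all genes were. Ifi202b and Ifi211 reached RPKM 5 through NOD alone and Ifi209 through B6 alone, and Ifi202b was chosen for its absence from B6, so these counts and those of the later ages are no test of the cluster. At the later ages 2 of 7 were 2-fold higher (Ifi202b and Ifi211) and 1 lower (Ifi209), where 5.91% and 1.62% of all genes were.

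Between the ages of a strain the ratio of each detected member lay from 0.708 to 1.31. In NOD the ratio of week 6.5 to week 4 was 0.874 for Ifi202b (95% exact interval 0.819 to 0.934), 0.926 for Ifi203 (0.891 to 0.963), 1.07 for Ifi204 (0.938 to 1.22), 0.708 for Ifi205 (0.352 to 1.46) and 1.06 for Aim2 (0.899 to 1.25). In B6 the ratio of week 7 to week 4 was 1.15 for Ifi203 (1.09 to 1.22), 0.85 for Ifi204 (0.714 to 1.01), 1.26 for Ifi205 (0.789 to 2.02) and 1.31 for Aim2 (1.04 to 1.65), and Ifi202b was listed at 0 at both ages. Among the genes of the cluster that reached RPKM 5, 0 of 6 in NOD and 0 of 5 in B6 were 2-fold apart between ages. The background was 0.682% of genes higher and 0.139% lower at the later age in NOD, and 0.14% and 3.82% in B6. Over all genes of the cluster the age ratio ran from 0.708 to 1.21 in NOD and from 0.806 to 1.57 in B6. RPKM, like RPM, uses the whole depth, of which the tables held a smaller part in B6 week 7 than in B6 week 4. If scaled to those parts, the B6 age ratios would be higher and those of NOD week 6.5 to B6 week 7 lower. These ratios were not rescaled.

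Genes around the cluster gave little to compare. The nearest 5 measured genes on its Aim2 side (Cadm3, Darc, Olfr1403, Fcer1a and Olfr1404) and on its Ifi205 side (Olfr433, Olfr432, Olfr431-ps1, Olfr430 and Olfr429) had RPKM of at most 0.08 in any library, and none passed the filter.

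Of 52 tested interferon-induced genes outside the cluster, 1 rose and 3 fell in limma, where 2.78% and 1.59% of all genes did, and 15 had an unadjusted p under 0.05, where 12.7% did. The median log2 difference of the list was -0.08, against 0.10 for all genes. Mx2, an antiviral GTPase, rose from 1.68 and 1.89 in B6 to 4 and 5.05 in NOD (limma adjusted p = 0.0342, 0.0619 without B6 week 7, 0.242 without NOD week 6.5, and 0.0507 and 0.0535 with TMM and quantile scaling).

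The genes that fell were Tgtp, Rsad2 and Tyki. Tgtp, an interferon-induced GTPase with up to 95% shared reads, went from 46.95 and 55.4 to 24.9 and 21.2 (limma adjusted p = 0.0425, 0.349 without NOD week 4, 0.73 without NOD week 6.5 and 0.116 in single-place reads). Rsad2, the viperin gene, went from 2.53 and 2.29 to 1.02 and 0.83 (limma adjusted p = 0.0427, 0.0676 without B6 week 7, 0.0955 without NOD week 4 and 0.30 without NOD week 6.5). Tyki (Cmpk2), a nucleotide kinase beside Rsad2 in the genome, went from 3.03 and 1.80 to 0.45 and 0.54, having passed the filter through B6 alone (limma adjusted p = 0.025). With no filter on low values none of these 4 calls was kept in limma (adjusted p = 0.182 for Mx2, 0.124 for Tgtp, 0.166 for Rsad2 and 0.17 for Tyki). The most abundant members did not pass: Ly6e was at 862 and 494 in B6 and at 738 and 826 in NOD, Ifitm2 at 108, 56.3, 110 and 121, and Bst2 at 109, 77.3, 82.6 and 81.4, in the same order.

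Receptors and signal transducers of interferon were measured at 21 genes past the filter. Of these, 0 passed the test in limma and 0 had an unadjusted p under 0.05, where 4.37% and 12.7% of all genes did. Ifngr1, a receptor chain for interferon gamma, was at 154 and 142 in B6 and 128 and 92.3 in NOD, the kinase gene Jak1 at 52.5, 43.5, 49.0 and 51.6, and the transcription factor gene Irf1 at 52.2, 36.0, 41.8 and 39.9. The median log2 difference of this list was -0.06, against 0.10 for all genes.

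Among 24 tested genes linked to nucleic acid sensing, which include enzymes and endosomal factors, 1 fell: Hmgb1, a chromatin protein gene with up to 92% shared reads. It was at 43.2 and 41.9 in B6 and 17.5 and 17.0 in NOD (limma adjusted p = 0.0177, and 0.0639 with no filter). Its log2 difference was -1.26, and -1.27 without NOD week 4 and -1.24 without NOD week 6.5, fits that left 1 NOD library each. Over all genes 1.59% fell. The helicase gene Dhx9 was at 55.3, 64.7, 48.3 and 61.3, the trafficking factor Unc93b1 at 33.0, 22.5, 30.8 and 26.5, and Irf3 at 24.95, 19.3, 31.0 and 26.2, and none of these passed.

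Pycard and Casp1, the partners of Aim2, were expressed without a strain call. Of 23 inflammasome genes measured, 11 passed the filter on low values. Il1b, Il1a, Nlrp3 and Mefv, with RPKM of at most 0.09, were among those that did not. Of the 11 tested, 0 passed in limma and 2 had an unadjusted p under 0.05, where 4.37% and 12.7% of all genes did. Their median log2 difference was -0.13, against 0.10 for all genes. Pycard, the adaptor that Aim2 binds, was at 39.7 and 32.6 in B6 and 42.0 and 32.6 in NOD. Casp1, the protease it activates, was at 7.33, 13.1, 6.97 and 9.14, and was picked for its role after its values were seen. Txnip was at 47.6, 55.3, 33.0 and 27.3, and Casp8 at 26.3, 23.3, 17.2 and 21.5. For proteins reported to bind or respond to p202 or p204, 19 genes were tested. In limma 0 passed and 0 had an unadjusted p under 0.05, where 4.37% and 12.7% of all genes did. Their median was 0.26, against 0.10 for all genes. Cdk4 was at 160 and 88.1 in B6 and 139 and 145 in NOD, Myc at 76.0, 43.5, 80.7 and 65.5, and E2f4 at 73.7, 44.8, 80.4 and 65.4.

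**Figure D5:**
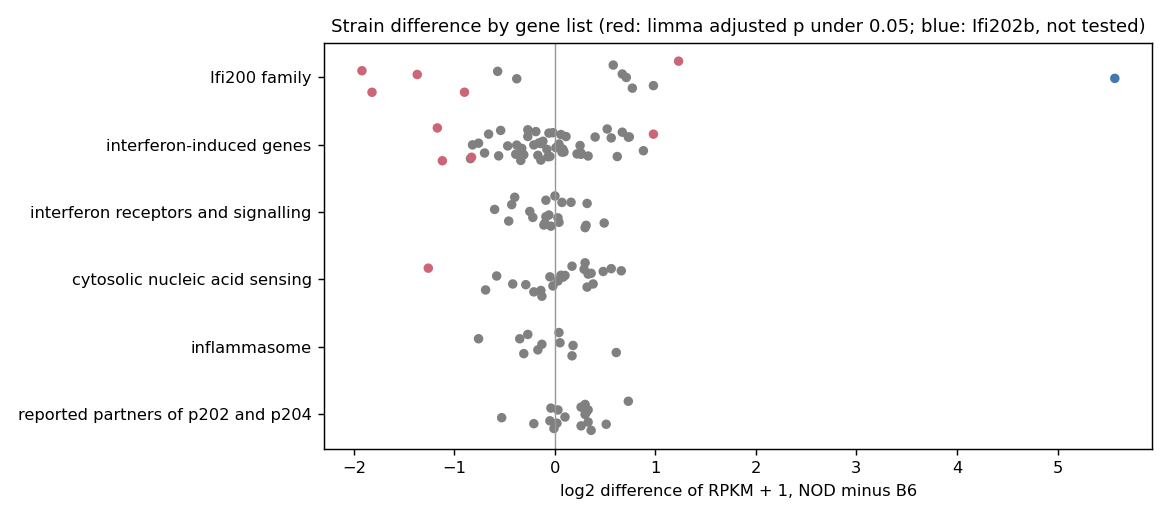
Log2 difference of RPKM + 1 between NOD and B6 for each tested gene (points, from 2 libraries per strain) of the Ifi200 family and of 5 lists of related genes, with calls in limma in red and Ifi202b, which was not tested, in blue. Ifi202b stands alone at 5.57, while the interferon-induced genes centre on a median of -0.08.

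The genes whose profile over the 4 libraries was nearest to a member were found by the distance between centred log2(RPKM + 1) values, among 8525 genes with under 10% shared reads. For Ifi202b they were 2300002M23Rik (distance 0.544), at 2.91 and 1.59 in B6 and 157 and 106 in NOD, Epha2 (1.47) and LOC675325 (1.5), the last listed at 0 in B6. For Ifi203 they were LOC100043738, S100a1 and Ssx2ip (distances 0.0355 to 0.169), for Ifi204 LOC100039577 and LOC100043794 (0.0583 and 0.076), for Ifi205 Plcxd2, Dio2 and 1810026B05Rik (0.033 to 0.0604), and for Aim2 Rnf122, Rfesd and Gabbr1 (0.0951 to 0.119). With 4 libraries many genes can lie this close, and the distances are a description.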

How the data were processed

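Polyadenylated RNA of sorted thymocytes was sequenced in 4 libraries. Bowtie 0.12.1 and the mouse build mm9 are named in the submitters' processing notes. The 32-base read length comes from the file names. Per the file headers, the authors deposited for each gene a length, an RPKM value and the fraction of its reads mapping to more than 1 place, called shared reads here. How shared reads were divided among copies, and by which counting program, is not stated in these sources. Reads of NOD were placed on C57BL/6J sequence, and the effect on NOD values was not tested. Single-place RPKM is RPKM times 1 minus the deposited fraction.

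Between 105 and 168 regions without a gene name (0.28% to 0.528% of reads in the tables) were left out. Depth was recovered from the steps of low RPKM values: 97.9% to 100% lay within 0.1 reads of a whole number, where chance gives 20%. Intervals (Poisson, Clopper-Pearson, 95%) cover counting error only.

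For the strain comparison, log2(RPKM + 1) was fitted with limma (version 3.58.1, R 4.3.3) for strain alone, with an intensity trend. Genes needed RPKM 1 in 2 or more libraries, tests were two-sided with 2 residual degrees of freedom, and Benjamini-Hochberg adjusted p-values were read at 0.05. The fit was tested on simulated data. Single libraries were compared by ratios and by a 2-fold rule on RPKM + 1 among genes with RPKM of 5 or more in either. Current symbols and gene order came from RefSeq (GRCm38.p6), word counts from GENCODE M21 transcripts. Alternatives were pseudocounts, filters, TMM and quantile scaling, single-place reads, an age block and leaving out each library.

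The members and lists were chosen with earlier results of these data known. Named were the members, all Ifi200 genes listed, list genes past the test, up to 3 further genes per list by mean RPKM, the 3 nearest profiles per member (1 is not reported here) and the 5 nearest genes on either side.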

Additional observations from a re-analysis of the deposited data

How the results depend on the processing

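The sign of the strain difference of all 13 Ifi200 genes was the same in every alternative fit that gave a value. The counts of genes higher and lower in NOD (345 and 197) became 82 and 40 with no filter, 156 and 91 with a minimum RPKM of 5 in any 1 library, and 665 and 340 with age class as a replicate block. Libraries left out in turn gave 264 to 2919 higher and 146 to 452 lower. The younger libraries' deviations correlated at 0.0951 over genes. With 1 library per strain and age, this value cannot tell a shared effect of age from shifts of single libraries. Age class was not used as a pairing in the main fit. Under that block Ifi203 and Ifi207 (AI607873) passed in limma (adjusted p = 0.0234 and 0.0035) and no Ifi200 call was lost. TMM and quantile scaling moved the median of all genes from 0.096 to -0.006 and -0.009 and changed no Ifi200 call. At week 4, 198 genes 2-fold higher and 181 lower became 124 higher with single-place reads, and 326 and 273 with RPKM of 1 or more. That filter gave 213 lower in place of 140 between the later libraries, 90 higher in place of 59 with age in NOD, and 27 higher in place of 12 in B6. A pseudocount of 0.1 gave 19 lower in place of 12 in NOD and 499 in place of 328 in B6. The cluster sum of NOD over that of B6 was 1.5, 1.6 in single-place reads, 1.24 without Ifi202b and 1.15 with both; the last, and leaving out a library (1.42 to 1.58), were chosen after seeing the data. The causes were not tested, except that fewer or more genes are tested under other filters.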
